A study of Mus musculus with 6 samples.

Results

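The transcripts described here encode 10 proteins that act in the extracellular matrix or in coagulation: fibronectin (Fn1), thrombospondin-1 (Thbs1), osteopontin (Spp1), versican (Vcan), the TGF-beta-induced protein (Tgfbi), extracellular matrix protein 1 (Ecm1), the A subunit of coagulation factor XIII (F13a1), coagulation factors X and VII (F10 and F7) and tissue transglutaminase (Tgm2). They were picked by name, and the picking was done with values of the comparison below already known, so their levels, and whether a fit called them, are given as a description, and no p is printed for them. All 10 were among the 39179 genes of the count table and among the 8793 genes that passed the filter on low counts. That filter looks at the counts themselves, so a gene low in one group could pass through the other.

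RNA was read from tumor-associated macrophages (TAMs) of C57BL/6 hosts that were 8 weeks old and carried subcutaneous tumors of a melanoma line established from a BRAF-mutant mouse model. In 3 Ptgs-competent (Ptgs+/+) libraries the tumor cells had both cyclooxygenase genes, Ptgs1 and Ptgs2, and in 3 Ptgs-deficient (Ptgs-/-) libraries the tumor cells lacked both after CRISPR editing. The edit was in the tumor cells only, and the macrophages of both groups were of host genotype. Every library was a pool of tumors, sorted on CD45, CD11b and F4/80 with NK1.1 and Ly6G excluded and Ly6C absent or dim, so its value is a mean over tumors. The comparison asked how the loss of tumor cyclooxygenases, and so of the prostaglandins made by tumor cells, bears on TAMs.

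Macrophages remodel the matrix around them. They secrete adhesive glycoproteins such as fibronectin and osteopontin, which integrins bind, and enzymes that cross-link them. Factor XIII and tissue transglutaminase belong to one enzyme family and join glutamine to lysine side chains, factor XIII mainly in fibrin and fibronectin. Factor VII, bound to tissue factor, activates factor X, which in turn makes thrombin. The liver supplies most plasma factor VII and factor X, while the A subunit of factor XIII comes largely from cells of the bone marrow lineage, macrophages and megakaryocytes among them.

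The libraries held 4431184 to 8760679 counts, with 7794 to 10714 genes detected, and the biological coefficient of variation over all genes was 1.26. Levels are TMM-scaled CPM, counts scaled to a common library total, given as mean ± SD over 3 libraries. The kit reads the 3′ end of a transcript, so CPM did not need a length correction to be set side by side between genes. A floor of 3 counts corresponded to 0.357 to 0.647 CPM and covers counting error only. Fold changes are on the log2 scale, with positive values for a higher level in Ptgs-deficient, and carry a standard error (SE). Calls needed both an adjusted p no higher than 0.05 and a fold change of 1.5 or more in size on that scale. The edgeR quasi-likelihood test called 19 genes by this rule, 14 higher and 5 lower.

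All 12 macrophage markers were detected in the sorted cells, with Lyz2 the highest. Their summed level was 6954 to 18658 CPM in Ptgs-competent libraries and 22089 to 26198 CPM in Ptgs-deficient ones, lowest in Ptgs-competent replicate 3. In that library Cd68 was at 26.5 and Csf1r at 231 CPM, beside 405 to 516 and 797 to 1559 CPM in the others. Of the 12 markers, 7 (C1qa, C1qb, C1qc, Cd14, Emr1, Fcgr1 and Itgam) were higher in every Ptgs-deficient library, as 970 of the 8793 tested genes were. Mertk (99.3 against 93.3 CPM) and Aif1 (731 against 633 CPM) had lower Ptgs-deficient means, and their groups overlapped. Of the 8 monocyte markers, all were detected, Ccr2 being the highest, and their sum was 428 to 1236 against 2651 to 3268 CPM. Of the 11 markers of serous cavity and resident macrophages 9 were detected, with Folr2 the highest and Gata6 and Prg4 at 0. Selp had 41 counts in Ptgs-competent replicate 3 alone, and the sum of the list was 167 to 403 against 1055 to 1503 CPM. Fibroblast markers went the other way, with 7 of 8 detected (Col1a1 the highest, Lum at 0) and sums of 157 to 349 against 15.9 to 51.2 CPM. The platelet and megakaryocyte list summed to 5810 to 11822 against 2618 to 3249 CPM, nearly all of it from the chemokines Pf4 and Ppbp, while 7 of its 10 genes, Clec1b, Gp1ba, Gp1bb, Gp5, Gp6, Gp9 and Treml1, were at 0 in every library. Endothelial markers, with Pecam1 the highest and Cdh5, Cldn5, Emcn, Tek and Tie1 of the 8 at 0, summed to 92.9 to 197 against 37.3 to 71.9 CPM. Of the other detected ones, Vwf went the other way in its mean, with 3, 0 and 0 counts against 37, 126 and 2, and Kdr was at 15.1, 0 and 0 against 0, 6.91 and 3.72 CPM. Neutrophil markers, with Ly6g at 0 and S100a8 the highest, summed to 621 to 724 against 452 to 532 CPM. Retnlg of that list went the other way, at 20.2, 59.9 and 16.2 against 123, 114 and 180.2 CPM. Csf3r did so in its mean, at 29.5, 33.6 and 0 against 28.8, 54.1 and 47.0 CPM. NK cell markers summed to 2.07 to 2.37 against 16.8 to 31.6 CPM, nearly all of the latter from Klrk1, which was at 0 against 26.3, 4.29 and 16.1 CPM, and Gzma, while Gzmb, Ncr1 and Prf1 were at 0 in every library and Klrb1c and Nkg7 were under 1 CPM. B cell markers summed to 0 to 26.8 against 14.96 to 105.9 CPM, and the groups overlapped. Ighm, the highest of them, was at 0 against 14.96, 16.3 and 89.6 CPM, Cd79b was at 7.33, 26.8 and 0 against 0, 14.8 and 16.3 CPM, and Cd79a and Ms4a1 were at 0. Markers of T cells (Cd3d the highest, with Cd3e, Cd3g, Cd4, Cd8a and Trac at 0), dendritic cells (Siglech the highest, with Ccr7, Xcr1 and Zbtb46 at 0) and keratinocytes (Krt10 the highest, with Dsp, Krt1, Krt14 and Krt5 at 0) summed to at most 25.0 CPM in any library. All 7 hepatocyte markers (Alb, Apoa1, Apoa2, F2, Fgb, Serpina1a and Ttr) were at 0. Of the 8 melanoma markers, Dct, Mlana, Pmel, S100b, Sox10, Tyr and Tyrp1 were at 0, and Mitf had 0 to 1.91 against 10.6 to 44.3 CPM. The part of these shifts in the values below was not tested, and in bulk samples fewer cells of a type cannot be told apart from less RNA per cell.

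Of the 10 genes, 1 was called by the edgeR quasi-likelihood test (Fn1, higher), where the background over all tested genes was 0.216%. For 4 of the 10 the groups stood apart in CPM: Fn1 and F13a1 were higher in every Ptgs-deficient library, and Thbs1 and Vcan were lower. Over all tested genes 19.0% did not overlap in one direction or the other. Since the genes were chosen with this contrast known, nothing is read from either count. By their fitted values, 6 of the 10 were lower and 4 higher, and the median of their log2 fold changes was -0.70 beside 0.02 over all genes tested. Ptgs-competent replicate 3 was the lowest library of its group for 7 of the 10 genes (Ecm1, F10, F13a1, F7, Fn1, Tgfbi and Tgm2) and the highest for 0. Without it the groups did not overlap for 7 of the 10, F10 higher and Tgfbi and Tgm2 lower being added, beside 28.4% of all genes tested in that fit.

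**Figure D1:**
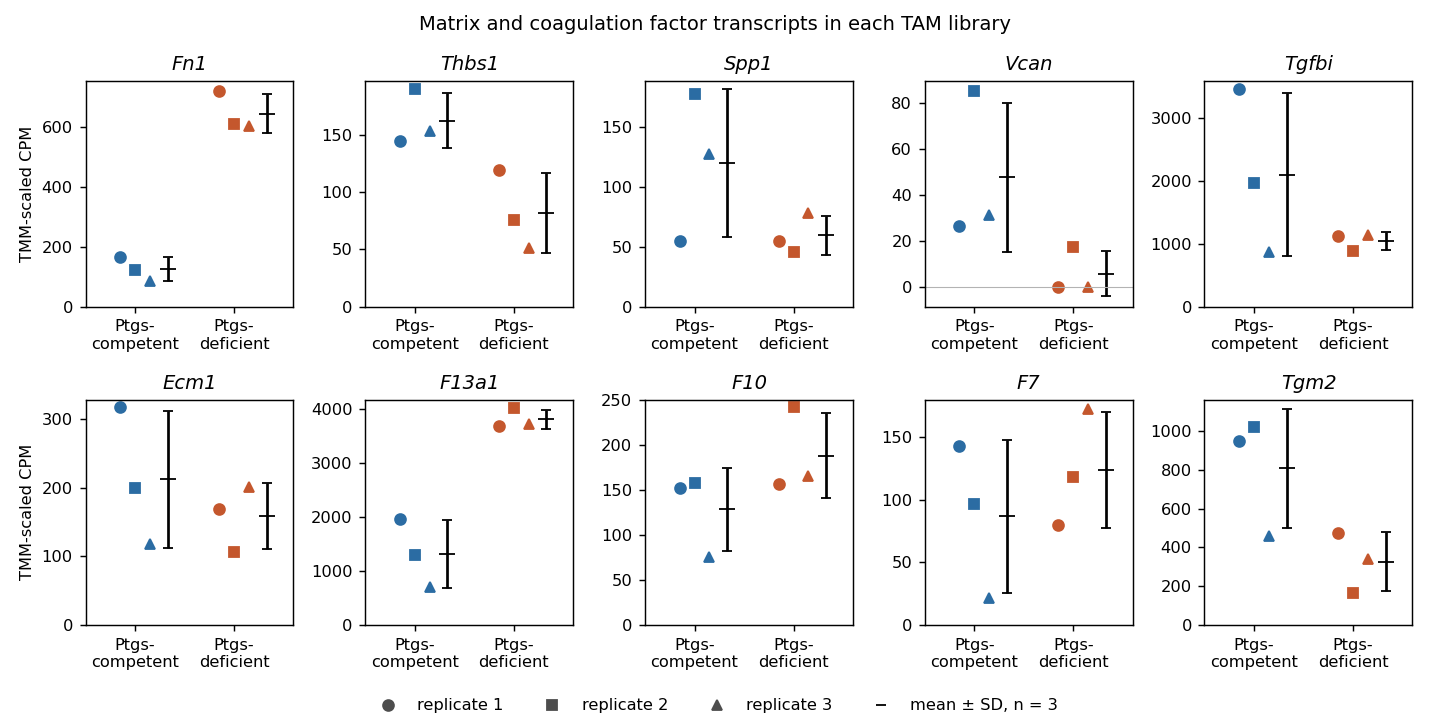
TMM-scaled CPM (vertical axes, each starting at 0 except the Vcan panel, whose SD bar reaches below it) of the 10 genes in the 3 Ptgs-competent and 3 Ptgs-deficient TAM libraries. Symbols mark replicates, and black bars give the mean ± SD. The groups are apart for Fn1 and F13a1 (higher in Ptgs-deficient) and for Thbs1 and Vcan (lower), and they share part of their range for the other 6.

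Fibronectin is the adhesive glycoprotein that cells assemble into fibrils and that factor XIII links to fibrin. The Fn1 gene (ENSMUSG00000026193, GRCm38 chr1:71585520-71653200, minus strand) had 1039, 746 and 402 counts in Ptgs-competent replicates 1 to 3 and 3955, 5113 and 2919 in Ptgs-deficient replicates 1 to 3. On the CPM scale these were 166, 122 and 86.7 against 722, 609 and 604. The lowest Ptgs-deficient library was above every Ptgs-competent one, and the means were 125 ± 39.5 and 645 ± 66.6 CPM (SD, n = 3). Fn1 rose by 2.37 ± 0.36 (SE) on the log2 scale, the only gene of the 10 that the edgeR quasi-likelihood test called. The call was kept without Ptgs-competent replicate 3 and lost when any of the other 5 libraries was left out, at log2 fold changes of 2.31 to 2.63.

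Thrombospondin-1 is a matricellular protein that binds CD36, CD47 and integrins and can activate latent TGF-beta. Thbs1 (ENSMUSG00000040152, chr2:118111876-118127133, plus strand) stood at 144, 190 and 153 CPM in Ptgs-competent libraries and at 119.5, 75.1 and 50.7 CPM in Ptgs-deficient ones. The groups did not overlap, with means of 162 ± 24.1 and 81.8 ± 34.9 CPM (SD, n = 3). The log2 fold change was -0.99 ± 0.47 (SE), short of the size needed for a call.

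Osteopontin is a phosphorylated glycoprotein that macrophages and bone cells secrete, bound by integrins and CD44. Spp1 (ENSMUSG00000029304, chr5:104435118-104441050, plus strand) stood at 54.99, 178 and 128 CPM against 54.9, 45.6 and 78.0 CPM. Ptgs-competent replicate 1 lay at the level of Ptgs-deficient replicate 1, and the other Ptgs-competent libraries were above all Ptgs-deficient ones. The means were 120 ± 61.7 and 59.5 ± 16.7 CPM (SD, n = 3), and the log2 fold change was -1.01 ± 0.59 (SE).

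Versican is a large chondroitin sulfate proteoglycan that binds hyaluronan. Vcan (ENSMUSG00000021614, chr13:89655312-89742509, minus strand) had 167, 519 and 144 counts in Ptgs-competent libraries and 0, 144 and 0 in Ptgs-deficient ones. The means were 47.6 ± 32.6 and 5.72 ± 9.90 CPM (SD, n = 3), and the log2 fold change of -3.05 ± 2.13 (SE) had the largest error of the 10. Ptgs-deficient replicate 2 alone carried the signal of its group, and the ratio of the group means was 8.33, Ptgs-competent over Ptgs-deficient. Without Ptgs-competent replicate 2, the highest library, the mean of that group was 28.8 CPM. The antisense gene Gm4117 (chr13:89739460-89887166, plus strand) meets Vcan only at its 5′ end, away from the 3′ end that the kit reads. Gm4117 had 0, 88 and 71 counts against 88, 0 and 33. The strand setting of the counting is not given in the sources used here, and a sharing of reads with Vcan was not tested.

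The TGF-beta-induced protein, also known as βig-h3, binds collagen and integrins. Tgfbi (ENSMUSG00000035493, chr13:56609523-56639562, plus strand) was the most abundant of the 10 genes in Ptgs-competent libraries. It had 21654, 11921 and 4050 counts, or 3451, 1957 and 873 CPM, against 1113, 883 and 1135 CPM in Ptgs-deficient libraries. Ptgs-competent replicate 3 lay just under the lowest Ptgs-deficient library, and the other Ptgs-competent libraries lay above all of them. The means were 2094 ± 1295 and 1044 ± 140 CPM (SD, n = 3), with a log2 fold change of -1.005 ± 0.449 (SE). Without Ptgs-competent replicate 3 the mean of that group was 2704 CPM, and without replicate 1 it was 1415 CPM.

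Extracellular matrix protein 1 is a secreted glycoprotein that binds other matrix components. Ecm1 (ENSMUSG00000028108, chr3:95734147-95739569, minus strand) stood at 318, 200.2 and 119 CPM against 169, 106 and 202 CPM. The ranges lay over each other. The means were 212 ± 100.4 and 159 ± 48.7 CPM (SD, n = 3), and the log2 fold change of -0.42 ± 0.46 (SE) was smaller than its error.

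Of the cross-linking enzymes, F13a1 and Tgm2, neither was called by the edgeR quasi-likelihood test. The A subunit of factor XIII holds the catalytic site of the enzyme that stabilizes fibrin clots. F13a1 (ENSMUSG00000039109, chr13:36867178-37050244, minus strand) had 12306, 7902 and 3280 counts against 20201, 33688 and 18002, or 1961, 1297 and 707 CPM against 3686, 4012 and 3725 CPM. Every Ptgs-deficient library was above every Ptgs-competent one, and the Ptgs-deficient libraries lay close together. The means were 1322 ± 628 and 3808 ± 178 CPM (SD, n = 3), and the log2 fold change was 1.53 ± 0.39 (SE). Its size was past the fold threshold, but the gene was not called by the edgeR quasi-likelihood test. It was called by the edgeR likelihood ratio test, by limma voom and with no filter on low counts. The B subunit gene F13b, which encodes the carrier of the A subunit in plasma, was at 0 in every library.

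Tissue transglutaminase acts inside cells, at the surface and in the matrix, where it binds fibronectin. Tgm2 (ENSMUSG00000037820, chr2:158116402-158146436, minus strand) stood at 948, 1021 and 457 CPM in Ptgs-competent libraries and at 474, 167 and 340 CPM in Ptgs-deficient ones. The groups touched only where Ptgs-deficient replicate 1 exceeded Ptgs-competent replicate 3. The means were 808 ± 307 and 327 ± 154 CPM (SD, n = 3), with a log2 fold change of -1.31 ± 0.45 (SE). Tgm2 was called by limma voom, at a log2 fold change of -1.63. The opposite strand holds Rprd1b, which runs into the Tgm2 locus and had 152, 98 and 106 counts against 101, 109 and 7, far fewer than Tgm2 had in any library. The 3′ end of Tgm2 lies inside the Rprd1b locus and the strand setting of the counting is not given in the sources used here, so reads of that overlap cannot be told apart. Of the other 7 genes of the transglutaminase family list, Tgm1 had 0, 0 and 0 counts against 42, 50 and 2, Tgm5 had 15 counts in Ptgs-competent replicate 3 alone, and the other 5 were at 0.

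Factors VII and X are vitamin K-dependent serine proteases, encoded side by side on chromosome 8. F7 (ENSMUSG00000031443, chr8:13026034-13035809) and F10 (ENSMUSG00000031444, chr8:13037308-13056676) are both on the plus strand with 1498 bases between them. F10 stood at 153, 158 and 75.4 CPM against 156, 242 and 166 CPM, with means of 129 ± 46.1 and 188 ± 47.0 CPM (SD, n = 3) and a log2 fold change of 0.55 ± 0.43 (SE). F7 stood at 142, 96.3 and 21.6 CPM against 79.7, 118 and 172 CPM, with means of 86.7 ± 61.0 and 123 ± 46.4 CPM (SD, n = 3) and a log2 fold change of 0.51 ± 0.67 (SE). For both genes the groups overlapped. The ratio of F7 to F10 counts was 0.286 to 0.933 in Ptgs-competent libraries and 0.489 to 1.04 in Ptgs-deficient ones, and F10 was the higher of the pair in all libraries but Ptgs-deficient replicate 3. Transcripts of both were present while all 7 hepatocyte markers were at 0.

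**Figure D2:**
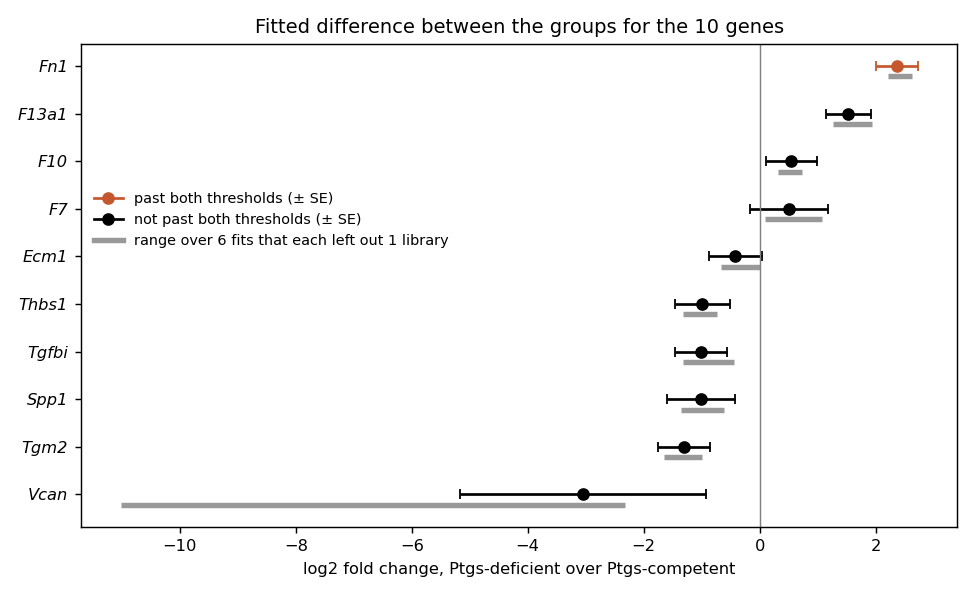
Log2 fold change (horizontal axis, Ptgs-deficient over Ptgs-competent) of the 10 genes with its SE, and grey bars for the range over the 6 fits that each left out 1 library. No bar crosses 0, although that of Ecm1 reaches -0.002, and the low end for Vcan, -11.02, is a fitted value against a group left at 0 and is no bound.

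Promoter sequence is shown for 5 of the genes. These are F13a1 as the most abundant of the 10 in Ptgs-deficient libraries, Spp1 and Ecm1 for the matches in them, and F7 and F10 as neighbors. The sequences are from RefSeq on GRCm38, the build of the files, and each runs over the 250 bases before a gene's start, 5′ to 3′ on the gene's strand. Of the 10 genes 7 matched an entry (Ecm1, F10, F13a1, F7, Spp1, Tgfbi and Vcan), with 9 promoters between them, and no entry matched Fn1, Thbs1 or Tgm2. Both strands were searched for 9 letter patterns. Capitals mark a match to TATAAA, to the PU-box letters GAGGAAG, to the AP-1 letters TGANTCA or to the interferon-response letters (GAAA, 2 bases of any kind, GAAA).
F13a1 promoter, chr13:37050245-37050494, minus strand: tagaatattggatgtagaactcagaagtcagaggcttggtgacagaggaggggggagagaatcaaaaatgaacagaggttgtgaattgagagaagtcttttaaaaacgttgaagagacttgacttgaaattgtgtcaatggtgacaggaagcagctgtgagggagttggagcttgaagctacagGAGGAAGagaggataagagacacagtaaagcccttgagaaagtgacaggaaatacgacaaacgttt
Spp1 promoter, chr5:104434861-104435110, plus strand: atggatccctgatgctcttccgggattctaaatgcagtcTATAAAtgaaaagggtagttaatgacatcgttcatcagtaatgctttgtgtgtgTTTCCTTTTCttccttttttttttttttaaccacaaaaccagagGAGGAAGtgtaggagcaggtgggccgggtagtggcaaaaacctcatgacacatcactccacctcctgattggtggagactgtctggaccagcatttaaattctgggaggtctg
Ecm1 promoter, chr3:95739570-95739819, minus strand: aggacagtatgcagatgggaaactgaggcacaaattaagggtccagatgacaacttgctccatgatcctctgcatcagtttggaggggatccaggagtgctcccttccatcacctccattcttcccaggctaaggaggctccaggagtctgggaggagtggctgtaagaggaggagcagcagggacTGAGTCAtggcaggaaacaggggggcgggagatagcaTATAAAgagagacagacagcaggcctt
F7 promoter, chr8:13025784-13026033, plus strand: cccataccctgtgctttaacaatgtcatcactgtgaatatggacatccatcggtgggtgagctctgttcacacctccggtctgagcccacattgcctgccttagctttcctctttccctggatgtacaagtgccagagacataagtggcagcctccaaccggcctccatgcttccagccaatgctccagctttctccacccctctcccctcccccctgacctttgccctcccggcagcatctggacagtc
F10 promoter, chr8:13037058-13037307, plus strand: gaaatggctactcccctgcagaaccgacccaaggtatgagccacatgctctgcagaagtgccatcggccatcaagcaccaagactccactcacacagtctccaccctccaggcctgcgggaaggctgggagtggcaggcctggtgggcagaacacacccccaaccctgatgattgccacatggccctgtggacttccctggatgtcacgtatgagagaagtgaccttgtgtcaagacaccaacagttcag

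In F13a1, the highest of the 10 genes in Ptgs-deficient libraries, the only match in this promoter was GAGGAAG at 60 to 66 bases before the start, letters that 10.6% of the 32817 promoters of the table also hold. The Spp1 promoter held the same letters, TATAAA and, on the other strand, the interferon-response letters. Ecm1 held TGANTCA, which 6.75% of all promoters hold, and TATAAA, which 12.4% hold, 27 bases before its start. The F7 and F10 windows held 0 of the 9 patterns. The interferon-response letters were found in 2 of the 9 promoters (Spp1 and Tgfbi) beside 2.97% of all. The cyclic AMP response letters TGACGTCA were in 0 of the 9 and in 1.55% of all, and the shorter TGACG was in 1, a second F13a1 start, and in 17.7% of all. The letters TTCNNNGAA (7.01% of all), CACGTG (6.02%) and the NF-kB letters (GGGA, 1 base of any kind, TTTCC; 0.357%) were in 0 of the 9. A match is a description of letters and not of binding.

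The sums of the 10 genes overlapped between the groups, and the make-up of the sums differed. The 10 genes summed to 7365, 5303 and 2651 CPM in Ptgs-competent libraries and to 6575, 6274 and 6472 CPM in Ptgs-deficient ones, and the Ptgs-deficient sums lay inside the Ptgs-competent range. F13a1 made 26.6%, 24.5% and 26.7% of it in Ptgs-competent libraries and 56.1%, 63.9% and 57.6% in Ptgs-deficient ones. Tgfbi made 46.9%, 36.9% and 32.9% against 16.9%, 14.1% and 17.5%. Fn1 made 2.25% to 3.27% of the sum against 9.33% to 10.98%, and Tgm2 made 12.9% to 19.2% against 2.66% to 7.22%. Tgfbi was the most abundant of the 10 in all 3 Ptgs-competent libraries and F13a1 in all 3 Ptgs-deficient ones. These shares do not depend on how a library is scaled.

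**Figure D3:**
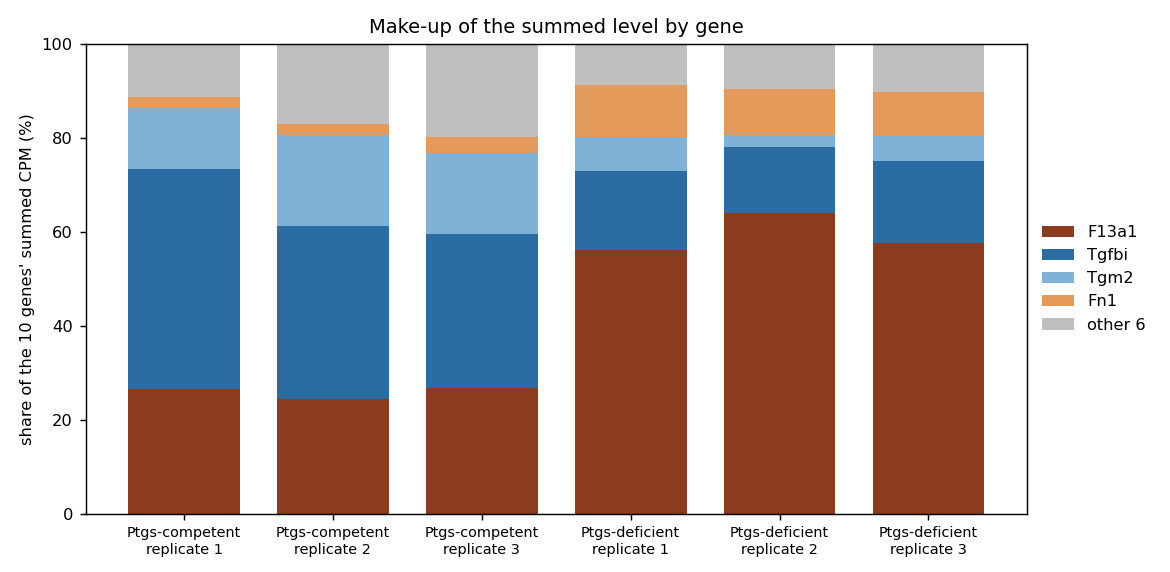
Share of the 10 genes' summed CPM (vertical axis, percent) held by F13a1, Tgfbi, Tgm2, Fn1 and the other 6 genes together in each of the 6 libraries. F13a1 makes 24.5% to 26.7% in Ptgs-competent libraries and 56.1% to 63.9% in Ptgs-deficient ones, and Tgfbi makes 32.9% to 46.9% against 14.1% to 17.5%.

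Ratios of counts inside a library need no scaling either. F13a1 over Tgfbi was 0.568, 0.663 and 0.810 in Ptgs-competent libraries and 3.31, 4.54 and 3.28 in Ptgs-deficient ones. F13a1 over Tgm2, the ratio of the cross-linking enzymes, was 1.27 to 2.07 against 7.77 to 24.0. Fn1 over Thbs1 was 0.567 to 1.15 against 6.04 to 11.9, and Fn1 over Tgfbi was 0.0480 to 0.0993 against 0.532 to 0.690. In these ratios the groups stood apart in every library, Ptgs-competent replicate 3 included. Tgfbi over Ecm1 (7.35 to 10.8 against 5.63 to 8.33) and Tgm2 over Tgfbi (0.275 to 0.523 against 0.189 to 0.426) overlapped. The ratios set against each other genes that were chosen with their directions known, and no test was made.

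**Figure D4:**
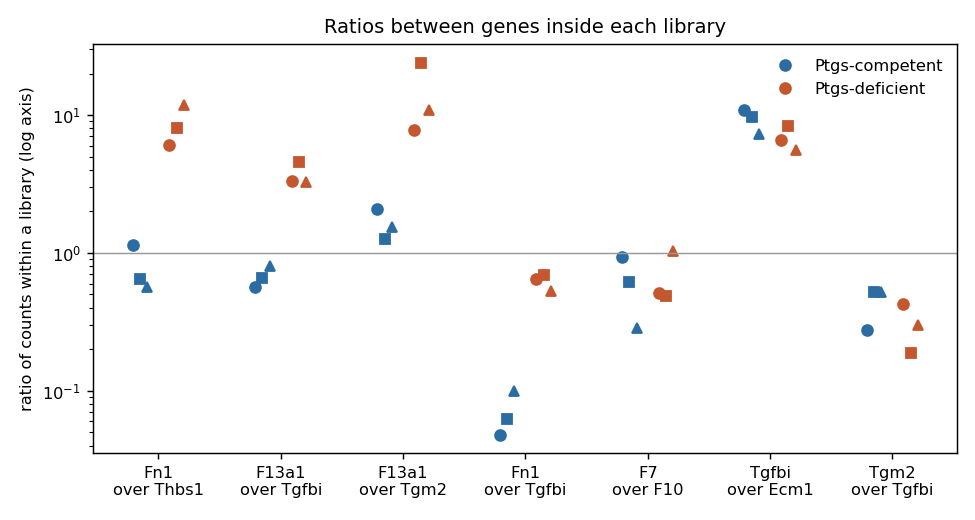
Ratio of counts between 2 genes inside each library (vertical axis, log scale; line at 1), with Ptgs-competent libraries in blue and Ptgs-deficient ones in orange, and symbols for replicates 1 (circle), 2 (square) and 3 (triangle). The groups are apart for the first 4 ratios and overlap for F7 over F10, Tgfbi over Ecm1 and Tgm2 over Tgfbi.

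The macrophage marker sum moved with the groups, so the genes were also set against it, an alternative added after the data were seen. Per 1000 counts of the 12 macrophage markers, Tgfbi had 197, 105 and 126 counts in Ptgs-competent libraries and 50.4, 39.5 and 43.3 in Ptgs-deficient ones. Tgm2 had 54.2, 54.7 and 65.7 against 21.5, 7.45 and 12.98. On this scale 6 of the 10 genes (Thbs1, Spp1, Vcan, Tgfbi, Ecm1 and Tgm2) were lower in every Ptgs-deficient library, where 17.7% of all tested genes were. Fn1, at 6.56 to 12.5 against 23.1 to 32.7, and F13a1, at 69.5 to 112 against 142 to 179, were higher in every Ptgs-deficient library on this scale too, as 5.16% of all tested genes were. F10, at 8.45 to 10.8 against 6.32 to 10.8, and F7, at 3.10 to 8.14 against 3.61 to 6.57, overlapped. The scaling moved the median of all genes to -0.91 on the log2 scale. Fn1, at 1.54, and F13a1, at 0.79, were above that median and not called with it, and the fitted direction of F10 (-0.21) and F7 (-0.086) turned.

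The wider pathways were described from 5 further lists, written with earlier results of these data known. In the coagulation and fibrinolysis list, 24 of 41 genes were detected and 14 were tested, of which 0 were called in either direction by the edgeR quasi-likelihood test and 3 had an unadjusted p under 0.05, as 8.83% of all tested genes had. The median log2 fold change was 1.26 beside 0.02 over all genes. The genes at 0 in every library included those for prothrombin (F2), factors VIII, IX, XI and XII (F8, F9, F11 and F12), plasminogen (Plg) and the fibrinogen chains (Fga, Fgb and Fgg). F3, which encodes tissue factor, the partner of factor VII, had 1 count in Ptgs-competent replicate 3 and 18 in Ptgs-deficient replicate 3 and 0 elsewhere. Ggcx, the carboxylase that vitamin K-dependent factors need, had 17 counts in Ptgs-competent replicate 1 and 29 in Ptgs-deficient replicate 3 and 0 elsewhere.

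Gas6, a vitamin K-dependent ligand of the Axl and Mertk receptors, stood at 439, 830 and 311 CPM against 1233, 2129 and 1755 CPM, a log2 difference of 1.69 ± 0.41 (SE), at an adjusted p of 0.166 by the edgeR quasi-likelihood test. Pros1, which encodes protein S, had 168, 0 and 3 counts against 426, 1412 and 545 (adjusted p 0.515). Fgl2, a fibrinogen-like protein with prothrombinase activity, had 354, 640 and 0 counts against 1393, 1506 and 1049 (adjusted p 0.869). F2rl1, the receptor PAR2 that factor VIIa and factor Xa can cleave, had 89, 285 and 188 counts against 0 in all 3 Ptgs-deficient libraries. Its Ptgs-competent mean was 66.5-fold the floor of 3 counts per Ptgs-deficient library, a lower bound on the difference. The adjusted p of F2rl1 was 0.217 by the edgeR quasi-likelihood test.

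Integrins and other receptors that bind these proteins were nearly all present, with 26 of 28 detected and 23 tested. The edgeR quasi-likelihood test called 0 of them, 5 had an unadjusted p under 0.05 (8.83% over all tested genes), and the median log2 fold change was 0.10. Itgam, the alpha chain of Mac-1, which was also used to sort the cells, stood at 603, 504 and 309 CPM against 892, 1150 and 1115 CPM (log2 fold change 1.16 ± 0.34 SE, adjusted p 0.261). Sdc3, a heparan sulfate proteoglycan, stood at 501, 506 and 253 against 799.7, 973 and 856 CPM (adjusted p 0.327). Sdc4, another syndecan, which binds fibronectin, stood at 299, 265 and 283 against 143, 120.03 and 71.8 CPM (log2 fold change -1.34 ± 0.39 SE, adjusted p 0.261). Itga6, an alpha chain of laminin receptors, had 174, 575 and 1257 counts against 75, 144 and 130 (adjusted p 0.292). These 4 were named for the smallest p of the list. Over its 23 tested genes the groups did not overlap for 4 higher and 5 lower, beside 19.0% of all tested genes.

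Of 35 other matricellular and matrix glycoproteins, 26 were detected and 10 tested, of which 0 were called by the edgeR quasi-likelihood test and 2 had an unadjusted p under 0.05, where 8.83% of all tested genes had. Their median log2 fold change was -1.67. Sparc, a collagen-binding matricellular protein, stood at 180, 126 and 600 CPM against 22.6, 17.6 and 36.8 CPM, a log2 difference of -3.56 ± 0.66 (SE), at an adjusted p of 0.0762. Its highest library was Ptgs-competent replicate 3, which also had the highest fibroblast marker sum, 349 CPM. Without that library the Sparc value was -2.53. The part of those markers was not tested. Lgals3bp, a secreted galectin ligand, had 1659, 1325 and 144 counts against 1822, 4020 and 2716 (adjusted p 0.563). Cyr61, a matricellular integrin ligand, had 1, 279 and 427 counts against 0, 42 and 0 (adjusted p 0.748), and Emilin1, an elastic fiber glycoprotein, had 20, 0 and 0 against 11, 176 and 178 (adjusted p 0.916).

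Among 24 partners of versican and hyaluronan, 12 were detected and 6 tested, with 0 called by the edgeR quasi-likelihood test, 2 at an unadjusted p under 0.05 (8.83% over all tested genes) and a median log2 fold change of 0.98. Lyve1, a hyaluronan receptor of lymphatic vessels and resident macrophages that is also in the resident macrophage list above, had 40, 145 and 68 counts against 502, 3359 and 663 (log2 fold change 3.81 ± 0.75 SE, adjusted p 0.0920), and without Ptgs-deficient replicate 2 the log2 fold change was 2.94. Srgn, the proteoglycan of secretory granules, had 864, 2682 and 394 against 2604, 7109 and 2325 counts (adjusted p 0.449). Stab1, a scavenger receptor, had 1767, 2066 and 929 counts against 710, 1370 and 1098 (adjusted p 0.825), and Hmmr, a hyaluronan-binding protein of dividing cells, had 110, 72 and 272 against 0, 0 and 62 (adjusted p 0.9995). The hyaluronan synthases Has2 and Has3 and the link proteins Hapln1, Hapln2, Hapln3 and Hapln4 were at 0 in every library.

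In the TGF-beta list 18 of 20 genes were detected and 13 tested. The edgeR quasi-likelihood test called 0 of them, 2 had an unadjusted p under 0.05 (again beside 8.83%), and the median log2 fold change was 0.02, beside 0.02 over all genes. Nrros, which holds latent TGF-beta at the surface of myeloid cells, stood at 385, 162 and 110 CPM against 436, 579 and 577 CPM (log2 fold change 1.28 ± 0.46 SE, adjusted p 0.376), and the log2 fold change was 1.97 without Ptgs-competent replicate 1. Tgfbr2, the type II receptor, had 402, 108 and 110 counts against 719, 746 and 468 (adjusted p 0.529). Tgif1, a repressor of SMAD-driven transcription, had 445, 379 and 228 against 547, 782 and 657 counts (adjusted p 0.842). Ltbp1, a latent TGF-beta binding protein of the matrix, had 93, 340 and 324 counts against 0, 49 and 0 (adjusted p 0.652). Across the 5 lists and the transglutaminase list, the other tests called more of these genes: 4 by the edgeR likelihood ratio test (F2rl1, Gas6, Lyve1 and Sparc), 5 by DESeq2 (Itga6 besides these) and 4 by limma voom (F2rl1, Gas6, Sparc and Srgn).

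**Figure D5:**
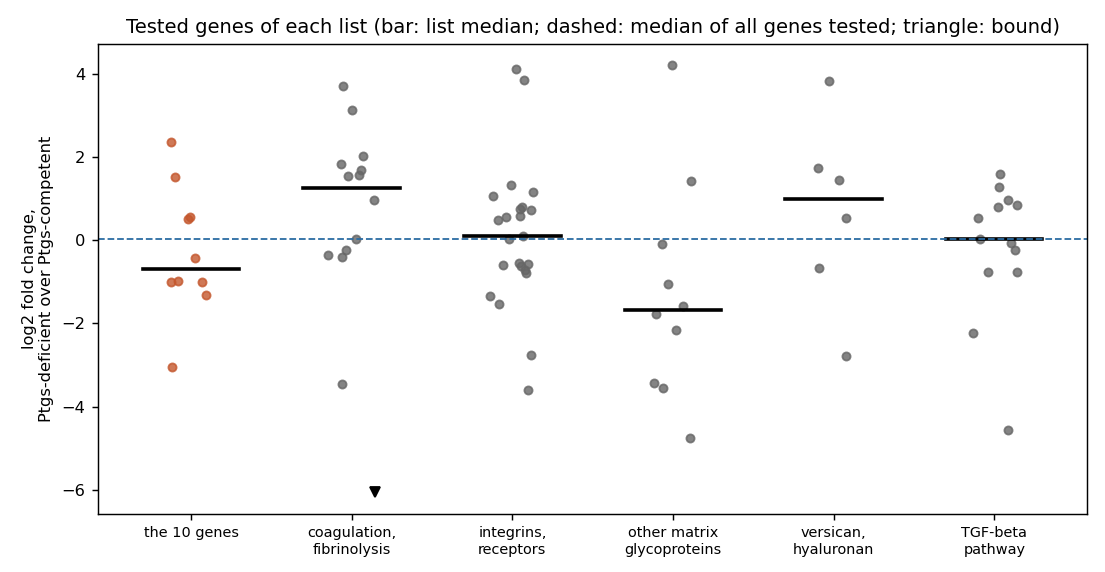
Log2 fold change (vertical axis, Ptgs-deficient over Ptgs-competent) of every tested gene of the 10-gene set and of the 5 further lists, with list medians as bars and the median of all genes as a dashed line. The triangle is F2rl1, drawn at its bound because all Ptgs-deficient libraries were at 0. The other matrix glycoproteins have the lowest median, -1.67, and the coagulation list the highest, 1.26.

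For each of the 10 genes, the tested genes most like it over the 6 libraries were found by the root mean square (RMS) difference of log2 CPM after centring each gene on its own mean. The nearest to Fn1 was Tmem59, a Golgi and lysosomal membrane protein, at an RMS difference of 0.15, with 577, 323 and 162 counts against 1697, 2093 and 1278. The next was Cybb, the membrane subunit of the NADPH oxidase, at 0.26. F13a1 was nearest to H2-Aa, an MHC class II chain (0.18), and to Ccr2, the chemokine receptor of monocytes (0.18), and Ccr2 had 2426, 1453 and 531 counts against 4108, 7265 and 4391. Thbs1 was nearest to 1700021K19Rik and to S100a8, a calcium-binding protein of neutrophils and monocytes (both 0.14). Tgfbi was nearest to Tuba4a (0.21) and Mif (0.24), Tgm2 to Mefv (0.21) and Mrpl40 (0.26), and Spp1 to Atp2a2 (0.21) and Lpp (0.25). F10 was nearest to Ccl4 (0.14) and Sec61b (0.14), F7 to Stk19 (0.14) and Rnf44 (0.16), Ecm1 to Paox (0.14) and Slc43a2 (0.15), and Vcan, with its libraries at 0, to Pef1 (0.504) and Hsf2 (0.56). The likeness is a description over 6 libraries.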

How the data were processed

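The authors deposited 1 table of raw counts per gene for 6 libraries, 3 per group. Per the study's methods, libraries were made from 800 pg of RNA with QuantSeq 3′ FWD, reads were trimmed with BBDUK, fqtrim and cutadapt, aligned with STAR to GRCm38 and counted with featureCounts on an Ensembl annotation. Tool versions, strand setting and molecular identifiers are not given in the sources used here, so PCR copies count as reads. The analysis used edgeR 4.0.16 (R 4.3.3): filterByExpr (minimum count 10, total 15), TMM scaling and the two-sided quasi-likelihood test with Benjamini-Hochberg adjustment over 8793 genes. limma 3.58.1 (voom) and DESeq2 1.42.0 were alternatives. Call thresholds were those of the study, whose methods state a generalized linear model test in edgeR without naming the quasi-likelihood form. The tests were tested on simulated data, whose outcome is not reported here and is not used as support. Positions came from GENCODE M21 (GRCm38).

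The 10 genes and all lists were chosen with earlier results of these data known. Named were the 10 genes, from each pathway list the called genes and then those with the smallest p up to 4, from each marker list the gene with the highest mean CPM and genes at 0 (1 marker is not reported here), and for each of the 10 genes the 2 most like it. Other list genes at or near 0 and the macrophage markers that did not overlap were named after their values were seen. So were Mertk, Aif1, Cd68, Csf1r, Treml4, Selp, Ppbp, Vwf, Kdr, Cd79b, Retnlg, Csf3r, Gzma, Klrb1c, Nkg7, F13b, Tgm1, Tgm5, F3 and Ggcx. Per the study's methods each library was a pool of tumors. Whether the pools came from separate experiments is not given in the sources used here, so p-values measure only the spread between these libraries. Correlations of the deviations of same-numbered libraries were -0.05, -0.02 and -0.02. With 3 libraries per group these cannot decide whether the numbers pair them, and the fit with TMM did not pair them.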

Additional observations from a re-analysis of the deposited data

How the results depend on the processing

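Genes called numbered 19 with TMM. The count was 19 to 21 with RLE, upper quartile or library-total scaling, 252 with no filter, 241 with the edgeR likelihood ratio test, 328 with DESeq2, 123 with limma voom, 77 with the replicate block, 1 with macrophage marker scaling (chosen after seeing the data) and 0 to 25 when 1 library was left out. The share of calls that were higher was 73.7% with TMM, 48.4% with no filter, 56.4% with the likelihood ratio test, 52.7% with DESeq2, 51.2% with voom and 63.6% with the replicate block. The median of all genes was 0.39 with voom and 0.26 with the block. Of the 10 genes, 1 was called with TMM, the other library scalings, DESeq2 and the replicate block, 2 (Fn1 and F13a1) with no filter or the likelihood ratio test, 3 (with Tgm2) with voom, 0 with macrophage scaling and 0 to 1 when a library was left out, where Fn1 stayed called only without Ptgs-competent replicate 3. Leaving out any of the other 5 libraries took the call from Fn1, at log2 fold changes of 2.31 to 2.63. Genes whose groups did not overlap numbered 4 with TMM, 8 with macrophage scaling, 4 to 5 by the other scalings and 4 to 7 when a library was left out. The share of all tested genes without overlap moved as well, from 19.0% with TMM to 22.8% with macrophage scaling, 19.1% to 19.3% with the other scalings and 24.4% to 33.5% when a library was left out. Of the pathway genes 0 were called with TMM, 9 with no filter, 4 with the likelihood ratio test, 5 with DESeq2, 4 with voom and 3 with the replicate block. Macrophage scaling turned F10 (-0.21), F7 (-0.086) and Tgif1 (-0.059). Leaving out Ptgs-deficient replicate 2 put Vcan at -11.02, a value against 0 counts. The cause of these shifts was not tested. With 3 libraries per group and 4 residual degrees of freedom, the fitted differences of Ecm1 and F7 were smaller than their SE.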
